A study of Homo sapiens with 12 samples.

Results

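The thrombospondins and the CCN proteins are secreted proteins of the pericellular matrix, and 9 of their genes were followed here among the 23273 genes listed. The members were the rows whose symbol was THBS1, THBS2, THBS3 or THBS4 (4 thrombospondins) or CYR61, CTGF, NOV, WISP1 or WISP2 (5 CCN genes, under their older symbols), and all 9 were found in the tables of both cell lines. The genes were picked from earlier results of the same libraries, so their changes are given below as a description, without p-values of single genes. Calls and counts of these genes at a p threshold, and whether they held in other fits, are likewise descriptions. RNA had been sequenced from 12 libraries of COLO858 and MMACSF, human BRAF-mutant melanoma lines treated with the RAF inhibitor vemurafenib, to ask which genes accompany adaptation to the drug in COLO858, with MMACSF as the comparison line. Each line contributed 2 replicate plates under DMSO (vehicle), 2 after 24 h and 2 after 48 h in 0.2 μM vemurafenib. The labels do not give the time at which the DMSO plates were harvested, and the same pair of DMSO libraries served both drug times. Both lines were cultured in vitro in penicillin, streptomycin and serum, but in different basal media and at different seeding densities, so the line cannot be told apart from its culture conditions. The deposited tables are named normalized values, and they are read here as FPKM (sequenced fragments divided by transcript length and by library size) from the methods and their range. The sums, shares and ranks over genes below rest on that reading. Each line has its own table, so that FPKM of COLO858 and MMACSF can be set side by side but were not tested against each other.

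Thrombospondin-1 and thrombospondin-2 are trimeric glycoproteins that bind matrix, proteases, CD36, CD47 and integrins and are known as inhibitors of angiogenesis. Thrombospondin-3 and thrombospondin-4 belong to the pentameric branch of the family, with COMP, and lack the type 1 repeats that carry the anti-angiogenic activity. The CCN proteins are small modular matricellular proteins that share a thrombospondin type 1 repeat and, in all but WISP2, a cystine-knot domain. They act through integrins and heparan sulfate, and CYR61 and CTGF are classical targets of YAP and TEAD and of SRF. In current nomenclature CYR61 is CCN1, CTGF is CCN2, NOV is CCN3, WISP1 is CCN4 and WISP2 is CCN5.

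Drug action and cell identity were checked in the same libraries. Of 10 genes of MAPK output, 7 of 9 tested were called lower (limma, adjusted p under 0.01) at both times in COLO858. In MMACSF 7 of 10 were called lower at 24 h and 8 of 10 at 48 h. Of all genes, 5.71% and 4.73% were called lower in COLO858 and 3.6% and 5.41% in MMACSF. Median log2 fold-changes at 24 h and 48 h were -2.27 and -1.76 for COLO858, beside 0.06 and -0.01 for all genes. For MMACSF they were -1.68 and -1.70, beside 0.07 and 0.06. All 6 melanocyte lineage markers were at 1 FPKM or more in MMACSF, whereas MLANA stayed below 1 FPKM in all 6 COLO858 libraries and TYR reached it at 24 h only. Summed, the 6 were 586 to 602 FPKM under DMSO and 3096 to 3674 FPKM in drug in COLO858, and 10300 to 10590 and 14810 to 16910 FPKM in MMACSF. The COLO858 sum in drug was mostly DCT, which was 252 and 283 FPKM under DMSO and 2139 to 3041 FPKM in drug. Of the 5 tested there, DCT and PMEL were called higher at both times and 3 were not called. Of the 6 tested in MMACSF, DCT was called higher at 24 h, and DCT, MLANA and TYR at 48 h. Among all genes tested, 4.11% and 4.74% were called higher in COLO858 at 24 h and 48 h, and 2.22% and 3.42% in MMACSF. Markers of endothelial cells (4 genes), keratinocytes (2 genes) and platelets (3 genes), all of them cells that make or carry thrombospondins, were below 1 FPKM in every library, with PF4, PPBP and KRT5 listed at 0 throughout. Of the 4 fibroblast markers, LUM was expressed in both lines, DCN in MMACSF, and COL1A1 reached 1 FPKM at 48 h in COLO858 only. The summed fibroblast markers were 5.69 to 8.70 FPKM under DMSO, 14.8 to 18.5 at 24 h and 17.2 to 27.1 at 48 h in COLO858, and 54.9 to 76.6, 41.9 to 50.6 and 19.1 to 27.8 in MMACSF. The 3 leukocyte markers, mostly CD68, summed to 13.2 to 16.7 FPKM under DMSO and 4.31 to 9.15 in drug in COLO858, and to 82.5 to 89.2 and 49.9 to 83.9 in MMACSF, with PTPRC below 0.25 FPKM throughout. The part of these markers in the results below was not tested. Summed FPKM ranged from 670310 to 1013038 over the COLO858 libraries and from 726083 to 856083 over those of MMACSF. The share of MIR4461 in these sums was 14.1% to 43.4% and 14.7% to 33.0%, and it was higher in replicate 2 in 3 of 3 groups of each line. Read depth is not given, so the precision of a single FPKM is unknown.

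The promoters of THBS1, THBS2 and CTGF are shown because in COLO858 the first was called higher and the second lower at both times, and CTGF was called higher at 48 h only. Each is the 250 bases before the RefSeq start of the gene (GRCh38.p14, coding strand), at chr15:39580829-39581078 (plus) for THBS1, chr6:169253847-169254096 (minus) for THBS2 and chr6:131951373-131951622 (minus) for CTGF. Capitals mark matches on either strand to GGAATG (a core of TEAD sites), TGANTCA (AP-1), GGGCGG (GC box) and the CArG box of SRF. TATAAA was matched on the coding strand only.
THBS1: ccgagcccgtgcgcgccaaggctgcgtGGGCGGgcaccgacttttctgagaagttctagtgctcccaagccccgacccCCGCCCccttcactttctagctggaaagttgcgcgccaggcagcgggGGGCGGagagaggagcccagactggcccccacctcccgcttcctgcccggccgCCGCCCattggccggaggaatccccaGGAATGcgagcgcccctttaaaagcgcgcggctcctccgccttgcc
THBS2: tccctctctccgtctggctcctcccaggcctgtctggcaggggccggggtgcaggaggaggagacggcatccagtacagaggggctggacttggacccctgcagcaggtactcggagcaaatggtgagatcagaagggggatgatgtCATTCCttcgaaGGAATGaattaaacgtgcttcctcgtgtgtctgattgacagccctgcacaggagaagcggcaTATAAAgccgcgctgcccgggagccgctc
CTGF: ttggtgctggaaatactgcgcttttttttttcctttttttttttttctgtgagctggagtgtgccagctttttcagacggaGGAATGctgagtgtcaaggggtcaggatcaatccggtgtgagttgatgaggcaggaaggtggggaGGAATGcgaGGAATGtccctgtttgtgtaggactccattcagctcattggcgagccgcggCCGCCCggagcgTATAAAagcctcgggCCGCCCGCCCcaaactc
The THBS1 window held 1 match to GGAATG, 46 to 41 bases before the start, and 4 GC boxes. The THBS2 window held 2 matches to GGAATG on opposite strands, 103 to 98 and 91 to 86 bases before the start, and TATAAA at 29 to 24, with no GC box. The CTGF window held 3 matches to GGAATG (169 to 164, 104 to 99 and 95 to 90 bases before the start), TATAAA at 32 to 27, and 3 GC boxes, of which the last 2 overlap. None of the 3 windows held TGANTCA or a CArG box. Of 35116 promoter windows of the same length, 11.9% held GGAATG, 6.57% TGANTCA, 42.6% GGGCGG, 6.8% TATAAA (coding strand only) and 1.16% a CArG box. The windows of THBS3 and THBS4 held GC boxes only or no match. No window was used for CYR61, NOV, WISP1 and WISP2. A match to letters is not a measured site.

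In COLO858 the thrombospondins changed places. Under DMSO THBS2 was 725 and 723 FPKM in the 2 replicates and THBS1 1.18 and 1.31 FPKM. After 24 h in vemurafenib THBS2 stood at 44.0 and 39.7 FPKM and THBS1 at 45.2 and 44.2 FPKM. After 48 h THBS1 had reached 209 and 221 FPKM, and THBS2 was 64.7 and 60.2 FPKM. For both genes the replicates of a condition lay far closer to each other than to those of any other condition, and no pair of conditions overlapped. By mean level among the 23273 genes, THBS2 went from rank 126 under DMSO to rank 2160 at 24 h and 1442 at 48 h, whereas THBS1 went from rank 11526 to 2030 and 376.

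THBS1 (chr15:39873280-39891667, plus strand, GRCh37) had a DMSO mean of 1.25 ± 0.0875 FPKM (SD, n = 2) and rose to 44.7 ± 0.737 FPKM by 24 h and to 215 ± 8.03 FPKM by 48 h. The ratio of means against DMSO was 35.9 at 24 h (33.8 to 38.2 over the 4 pairs of libraries) and 172.5 at 48 h (160.0 to 186). On the log2(FPKM + 1) scale, which understates the change of low genes, the fold-change was 4.35 (SE 0.12) at 24 h and 6.59 (SE 0.12) at 48 h. The 48 h value was the fifth largest of all genes tested in COLO858. FSIP1, which lies over THBS1 on the other strand, was 0.161 to 0.523 FPKM in the 6 COLO858 libraries and did not follow THBS1.

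THBS2 (chr6:169615875-169654145, minus strand, GRCh37) was among the most abundant transcripts of untreated COLO858 cells, at 724 ± 1.10 FPKM (SD, n = 2). Its mean was 17.3-fold lower at 24 h (16.4 to 18.3 over the pairs) and 11.6-fold lower at 48 h (11.2 to 12.1). On the log2 scale it fell by 4.08 (SE 0.12) at 24 h and fell by 3.52 (SE 0.12) at 48 h. The mean at 48 h, 62.4 ± 3.20 FPKM, was 1.49 times the mean at 24 h, 41.9 ± 3.10 FPKM, and that difference did not pass the threshold.

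THBS3 (chr1:155165379-155178842, minus strand, GRCh37), the pentameric thrombospondin expressed in cartilage and several adult tissues, was moderate in every library. It was 6.42 and 6.23 FPKM under DMSO, 14.0 and 13.5 at 24 h and 16.4 and 13.7 at 48 h, so that the drug libraries lay above the DMSO pair while the 24 h and 48 h pairs overlapped. The ratio of means was 2.17 at 24 h and 2.38 at 48 h, with log2 fold-changes of 1.01 and 1.13 (SE 0.15 each). MTX1, a mitochondrial gene that lies over THBS3 on the other strand, was 58.3 and 45.5 FPKM under DMSO and 28.7 to 45.3 FPKM in the 4 drug libraries, in the direction opposite to THBS3. The THBS3 calls were lost at both times with no minimum level, after median-ratio rescaling and with the spread taken from the compared groups alone.

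THBS4 (chr5:79287134-79379110, plus strand, GRCh37), the pentameric member known from tendon and muscle, stayed near the limit of 1 FPKM. Its values were 0.653 and 0.639 FPKM under DMSO, 1.35 and 1.35 at 24 h and 1.12 and 0.986 at 48 h. The 3 pairs did not overlap, but THBS4 entered the test only through its 24 h and 48 h levels, and its log2 fold-changes of 0.51 and 0.32 did not pass the threshold. COMP, the fifth thrombospondin and not a member by the rule, was listed at 0 in all 12 libraries.

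**Figure D1:**
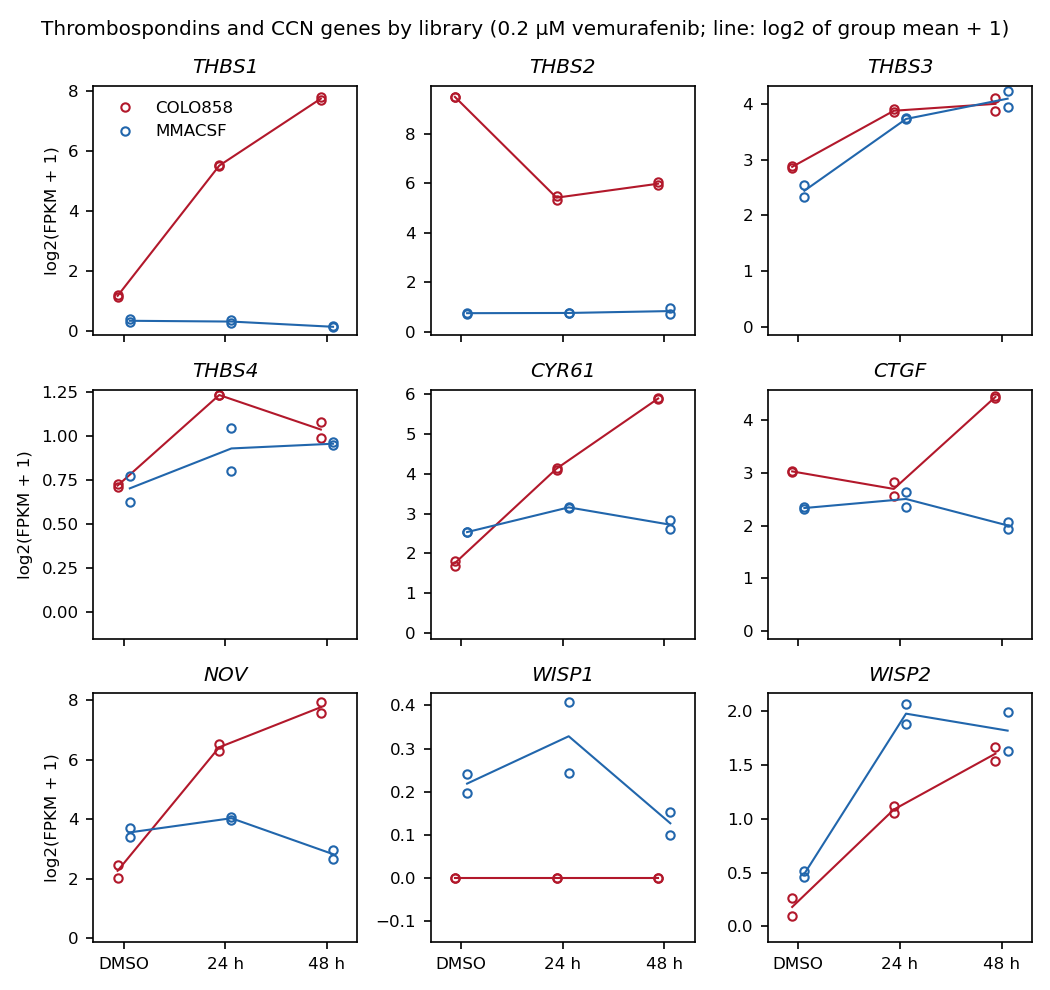
Each panel plots 1 gene as log2(FPKM + 1) against condition (DMSO, 24 h, 48 h in 0.2 μM vemurafenib), with circles for the 2 libraries of each group, lines through the group means, COLO858 in red, MMACSF in blue and a vertical scale that differs between panels. THBS1, NOV and CYR61 climb and THBS2 drops in COLO858, and NOV in MMACSF is highest at 24 h and lowest at 48 h without passing the threshold. THBS3 and WISP2 lie higher in drug than under DMSO in both lines, with WISP2 in MMACSF no higher at 48 h than at 24 h by mean.

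Of the 5 CCN genes of COLO858, NOV and CYR61 were called higher at both times, CTGF and WISP2 at 48 h only, and WISP1 was listed at 0. NOV, a CCN protein that binds integrins and Notch1, was 3.07 and 4.52 FPKM under DMSO, 78.0 and 91.5 at 24 h and 189 and 246 at 48 h. CYR61, an immediate-early matricellular protein, was 2.52 and 2.23 FPKM under DMSO, 16.2 and 16.8 at 24 h and 57.9 and 59.1 at 48 h. In both genes each later condition lay above the earlier one without overlap, and NOV at 48 h ranked 373 by mean level, next to THBS1 at 376.

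NOV (on chromosome 8) reached 84.7 ± 9.55 FPKM at 24 h and 217 ± 40.3 FPKM at 48 h (SD, n = 2), against 3.79 ± 1.03 under DMSO. These means were 22.3 times (17.3 to 29.8 over the pairs) and 57.3 times (41.8 to 80.2) the DMSO mean. The log2 fold-changes were 4.17 and 5.51 (SE 0.22 each), and the DMSO replicates lay further apart than those of THBS1. CYR61 (chr1:86046444-86050272, plus strand, GRCh37) reached 16.5 ± 0.447 and 58.5 ± 0.831 FPKM against 2.38 ± 0.209 under DMSO, which is 6.96 times (6.42 to 7.56) and 24.6 times (23.0 to 26.5). Its log2 fold-changes were 2.38 and 4.14 (SE 0.13 each).

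CTGF (chr6:132269316-132272512, minus strand, GRCh37), the close relative of CYR61 and a profibrotic target of TGF-beta, followed another course. It was 7.16 and 7.20 FPKM under DMSO, 6.09 and 4.90 at 24 h and 21.0 and 20.6 at 48 h. The 24 h pair lay below the DMSO pair, with a log2 fold-change of -0.34 (SE 0.15) that did not pass the threshold, and the 48 h pair above it. At 48 h the mean of 20.8 ± 0.276 FPKM (SD, n = 2) was 2.90 times the DMSO mean of 7.18 ± 0.0300, with a log2 fold-change of 1.42. Its promoter, printed above, held 3 matches to GGAATG, and whether they bear on its course was not tested.

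WISP2 (chr20:43343485-43357150, plus strand, GRCh37), the CCN protein without the cystine-knot domain, was 0.198 and 0.0668 FPKM under DMSO, 1.17 and 1.07 at 24 h and 1.90 and 2.18 at 48 h. All 4 drug libraries lay above both DMSO libraries, but WISP2 entered the test only through the drug groups. Its log2 fold-change was 0.91 at 24 h, which did not pass the threshold, and 1.43 at 48 h, which did. The ratio of means at 48 h was 15.4 with pairs from 9.58 to 32.7. The DMSO values in that ratio are near 0. WISP1 was listed at 0 in all 6 COLO858 libraries. WISP3, which is not a member by the rule, was at or below 0.0978 FPKM in all 12 libraries.

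Counted over the members, 4 of the 8 tested in COLO858 were called higher (adjusted p under 0.01) and 1 lower at 24 h, where limma called 4.11% of all 12696 genes tested higher and 5.71% lower. At 48 h 6 members were called higher and 1 lower, against 4.74% and 4.73% of all genes. The choice of genes used these contrasts, so nothing is read from these counts. The median log2 fold-change of the 8 tested members was 0.96 at 24 h and 1.42 at 48 h, and that of all genes 0.06 and -0.01. The calls of THBS1, THBS2 and NOV against DMSO, and that of CYR61 at 48 h, were made in all of the alternative fits and whichever library was left out. Without DMSO replicate 2, 24 h replicate 1 or 24 h replicate 2, CYR61 at 24 h lost its call, at log2 fold-changes of 2.31, 2.40 and 2.35. Leaving out any of the 4 libraries compared ended the calls of THBS3 at both times (0.98 to 1.03 and 1.01 to 1.24), and those of CTGF (1.40 to 1.43) and WISP2 (1.34 to 1.51) at 48 h. As these are bulk samples, fewer cells that make a transcript and less of it per cell cannot be told apart.

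**Figure D2:**
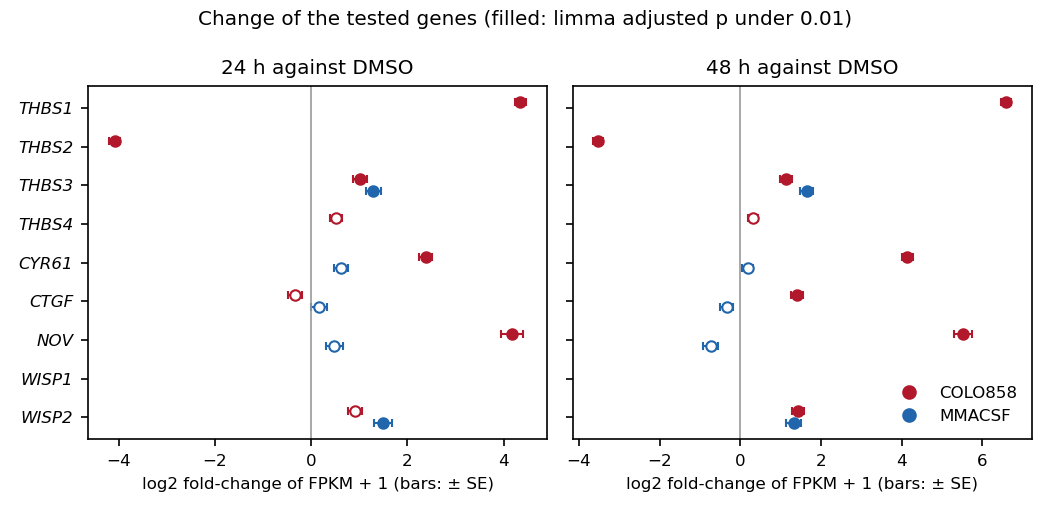
Points give the log2 fold-change of FPKM + 1 against DMSO of each tested gene at 24 h (left) and 48 h (right), bars give ± SE from limma, and filled points passed an adjusted p of 0.01. THBS1 lies at 4.35 and 6.59 and THBS2 at -4.08 and -3.52 in COLO858, while THBS3 and WISP2 are the filled points of MMACSF at both times.

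In MMACSF the members called were THBS3 and WISP2, both higher at 24 h and 48 h. THBS1, THBS2, THBS4 and WISP1 never reached a group mean of 1 FPKM and were not tested. THBS1 was 0.214 and 0.307 FPKM under DMSO, 0.188 and 0.288 at 24 h and 0.0872 and 0.107 at 48 h, with the 48 h pair below the DMSO pair. THBS2 was 0.640 to 0.916 FPKM in the 6 libraries, with the 3 conditions overlapping. THBS4 lay between 0.544 and 1.07 FPKM and WISP1 between 0.0710 and 0.327 FPKM.

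THBS3 was the main thrombospondin of MMACSF. It was 4.83 and 4.06 FPKM under DMSO, 12.4 and 12.2 at 24 h and 17.8 and 14.5 at 48 h, so each later pair lay above the earlier one. The means of 12.3 ± 0.119 and 16.1 ± 2.33 FPKM (SD, n = 2) were 2.77 times (2.53 to 3.05 over the pairs) and 3.63 times (3.0 to 4.38) the DMSO mean of 4.44 ± 0.543. The log2 fold-changes were 1.29 and 1.65 (SE 0.16 each). As in COLO858, MTX1 went the other way, from 49.7 and 36.9 FPKM under DMSO to 26.1 to 33.2 FPKM in the drug libraries.

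WISP2 rose in MMACSF as well. It was 0.377 and 0.429 FPKM under DMSO, 3.20 and 2.68 at 24 h and 2.97 and 2.09 at 48 h, and the 24 h and 48 h pairs overlapped. The ratio of means was 7.29 at 24 h (6.25 to 8.49 over the pairs) and 6.28 at 48 h (4.87 to 7.89), with log2 fold-changes of 1.49 and 1.32 (SE 0.19 each). Here too WISP2 was tested only because of its levels in drug.

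NOV, CYR61 and CTGF were expressed in MMACSF and were not called at either time. NOV was 9.60 and 11.9 FPKM under DMSO, 14.7 and 16.0 at 24 h and 5.28 and 6.87 at 48 h. The 3 pairs did not overlap, and the log2 fold-changes of 0.48 at 24 h and -0.73 at 48 h did not pass the threshold. CYR61 was 4.79 and 4.81 FPKM under DMSO, 8.03 and 7.81 at 24 h and 6.11 and 5.08 at 48 h, with log2 fold-changes of 0.62 and 0.18 that did not pass either. CTGF was 4.08 and 4.01 FPKM under DMSO, 4.12 and 5.26 at 24 h and 3.18 and 2.85 at 48 h, with log2 fold-changes of 0.16 and -0.33, again not past the threshold. All 3 genes had their highest mean at 24 h and a lower one at 48 h.

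Of the 5 members tested in MMACSF, 2 were called higher and 0 lower at 24 h, where 2.22% of all 12599 genes tested were called higher and 3.6% lower. The same count held at 48 h, against 3.42% and 5.41% of all genes. Both sets of 2 calls were THBS3 and WISP2, of which WISP2 was tested only because of its levels in drug. The genes were picked from these libraries, so nothing is read from these counts. Median log2 fold-changes of the 5 members, 0.62 and 0.18, stood beside 0.07 and 0.06 for all genes. Leaving out any of the 4 libraries compared ended both calls, at log2 fold-changes of 1.19 to 1.39 and 1.51 to 1.79 for THBS3 and 1.39 to 1.58 and 1.14 to 1.50 for WISP2 at 24 h and 48 h.

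Levels at 48 h were also compared with those at 24 h. Between 24 h and 48 h in COLO858 THBS1 rose 4.81 times (4.63 to 4.99 over the pairs), CTGF 3.79 times (3.39 to 4.29) and CYR61 3.54 times (3.44 to 3.65). These were the 3 members called higher, with log2 fold-changes of 2.24, 1.76 and 1.76, and 0 were called lower, against 1.17% and 0.213% of all genes. NOV was 2.57 times its 24 h mean at 48 h, with a log2 difference of 1.34 that did not pass the threshold. Without any of the 4 libraries compared, the 3 calls were lost, at log2 differences of 2.20 to 2.28 for THBS1, 1.62 to 1.89 for CTGF and 1.74 to 1.79 for CYR61. In MMACSF 0 of 5 members were called by limma in either direction, against 0.111% of all genes higher and 0.111% lower, and 3 of the 5 had an unadjusted p under 0.05, as had 6.98% of all genes. The largest difference there was that of NOV, whose mean was 2.53-fold lower at 48 h than at 24 h, at -1.22 on the log2 scale. These comparisons use the same drug libraries as those against DMSO and are not independent of them.

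The difference between lines in the change against DMSO was positive for THBS1, NOV and CYR61 and negative for THBS2 at both times. At 24 h, COLO858 minus MMACSF was 4.37 for THBS1, 3.69 for NOV, 1.76 for CYR61 and -4.09 for THBS2 on the log2 scale, and at 48 h it was 6.79, 6.25, 3.96 and -3.60. CTGF joined them at 48 h with 1.75. THBS3 (-0.29 and -0.52) and WISP2 (-0.58 and 0.11), the genes that rose in both lines, did not pass the threshold, and neither did THBS4 (0.29 and 0.06). With SEs of 0.15 to 0.29 for the members called, this made 3 of 8 tested members higher and 1 lower at 24 h, where 1.78% and 1.93% of all 13595 genes were called. At 48 h it made 4 higher and 1 lower, beside 4.19% and 3.3% of all genes, and both sets of calls were made whichever of the 8 libraries compared was left out. The change of THBS1 and THBS2 in MMACSF enters from levels below 1 FPKM.

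The make-up of each family shifted with these changes. THBS2 was 98.9% of the summed thrombospondin FPKM in each DMSO library of COLO858, and the sum was 733 and 732 FPKM. At 24 h the sum was 105 and 98.7 FPKM, with THBS1 at 43.3% and 44.8% and THBS2 at 42.1% and 40.2%. At 48 h the sum was 291 and 296 FPKM, of which THBS1 was 71.8% and 74.7%. In MMACSF the sum was only 5.74 to 6.28 FPKM under DMSO, 14.0 to 14.3 at 24 h and 16.4 to 19.4 at 48 h, and THBS3 made up 70.7% to 91.5% of it.

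Among the CCN genes, CTGF was the largest part in untreated COLO858, at 55.3% and 51.4% of sums of 13.0 and 14.0 FPKM. NOV took its place in drug, with 76.9% and 80.0% of 101 and 114 FPKM at 24 h and 70.0% and 75.0% of 270 and 328 FPKM at 48 h. In MMACSF the CCN sum was 19.0 and 21.3 FPKM under DMSO, 30.4 and 31.9 at 24 h and 17.6 and 17.0 at 48 h. NOV was the largest part there under DMSO and at 24 h, between 48.4% and 55.8%, and CYR61 and NOV shared that place at 48 h with 34.7% and 29.9% for CYR61 and 30.0% and 40.4% for NOV.

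**Figure D3:**
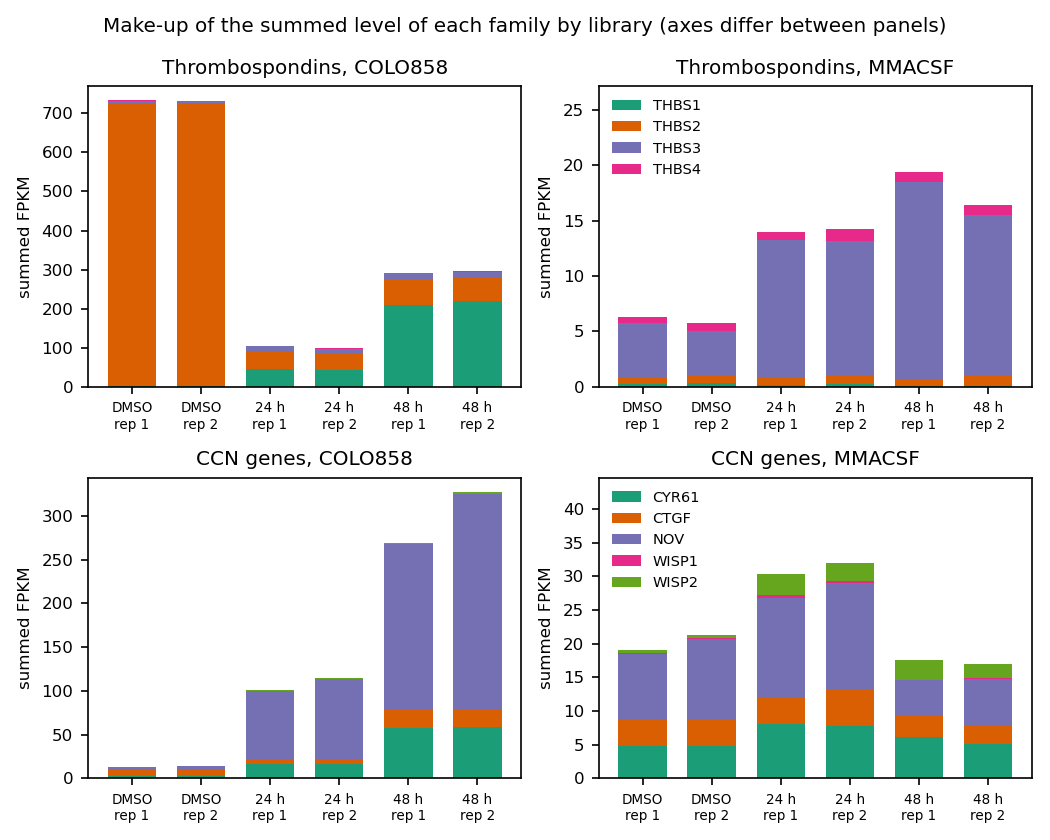
Stacked bars give the summed FPKM of the 4 thrombospondins (top) and the 5 CCN genes (bottom) in each library, with 1 colour per gene, COLO858 on the left and MMACSF on the right, on axes from 0 that differ between panels. In COLO858 the DMSO bars of 733 and 732 FPKM are nearly all THBS2 and the 48 h bars mostly THBS1, and the CCN bars grow from 13.0 and 14.0 to 270 and 328 FPKM, mostly NOV.

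For each tested member, the 3 genes with the most similar course were found by Pearson correlation of log2(FPKM + 1), centred on the DMSO mean of each line, over the libraries of the lines in which the member was tested. These correlations describe few points that share their DMSO libraries. THBS1 was most like EPAS1 (r = 0.9996), S100B (r = 0.9993) and PMEL (r = 0.999) over the 6 COLO858 libraries, and THBS2 was most like EGR1 (r = 0.9994), CSPG5 (r = 0.9987) and POLR3K (r = 0.9981). EGR1 is an immediate-early target of ERK, and it changed by -3.27 and -2.90 on the log2 scale at 24 h and 48 h in COLO858 and by -2.09 and -2.04 in MMACSF. Over all 12 libraries CYR61 was most like PSAP (r = 0.9951), MGP (r = 0.9911) and EPAS1 (r = 0.9901), so that EPAS1, the hypoxia-inducible factor HIF-2 alpha, appeared for both THBS1 and CYR61. MGP encodes matrix Gla protein, another secreted matrix protein, and changed by 3.86 and 5.67 on the log2 scale in COLO858 and 1.14 and 0.01 in MMACSF.

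NOV was most like DOCK10 (r = 0.9934), MID1 (r = 0.9917) and GLTP (r = 0.9909) over the 12 libraries. CTGF had the loosest partners, LMCD1 (r = 0.9634), ILK (r = 0.9547) and C2orf72 (r = 0.9413), of which ILK encodes integrin-linked kinase. LMCD1 shared the dip and rise of CTGF in COLO858, at -0.47 and 1.81. WISP2 was most like TNS3 (r = 0.9808), SHF (r = 0.9772) and ERV3-1 (r = 0.9734), and THBS3 was most like AHSA2 (r = 0.9906), ACCS (r = 0.9871) and PTK2B (r = 0.9865). TNS3 (tensin 3, a focal adhesion protein) changed by 0.83 and 1.50 in COLO858 and by 1.45 and 1.51 in MMACSF. THBS4 was most like FAM214B (r = 0.9974), C12orf51 (r = 0.9962) and LOC646471 (r = 0.9953) over the 6 COLO858 libraries.

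Other genes of the pathway were taken from lists written from general knowledge, with 91 genes in all that are not members. Earlier results of these data were known when the lists were chosen, so their counts and medians are descriptions. Of 70 tested in COLO858, 7 were called higher and 5 lower at 24 h (10.0% and 7.14%) and 13 higher and 6 lower at 48 h (18.6% and 8.57%). Of 61 tested in MMACSF, 5 were called higher and 2 lower at 24 h (8.2% and 3.28%) and 7 higher and 5 lower at 48 h (11.5% and 8.2%). The shares of all genes called are those given above for the same comparisons. Most or all of these calls were lost when any 1 of the 4 libraries compared was left out. How calls of all genes changed in those fits is not given here. Whether the loss is particular to these genes can therefore not be told. Adjusted p-values below are from limma over all genes tested, and in each call given below with its values the libraries of the groups compared did not overlap. Genes given with adjusted p-values were picked as the largest rise or fall of their list at 48 h, so these p-values describe selected genes.

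Of the receptors that bind these proteins, the integrin subunit ITGB3, a partner of ITGAV in binding both families, fell in COLO858. Its DMSO mean was 174 ± 9.58 FPKM (SD, n = 2), and it was 29.3 ± 0.289 FPKM after 24 h and 15.3 ± 0.384 FPKM after 48 h, at log2 fold-changes of -2.53 (adjusted p = 0.000688) and -3.43 (adjusted p = 0.000262). In MMACSF ITGB3 was 69.5 ± 8.14, 46.8 ± 7.31 and 43.9 ± 3.64 FPKM, and its log2 fold-changes of -0.56 and -0.65 did not pass (adjusted p = 0.0657 and 0.0403). ITGA4, an integrin subunit reported to bind thrombospondins, rose in COLO858 at 24 h, from 28.1 ± 5.88 to 86.9 ± 9.86 FPKM (adjusted p = 0.00572), and was 58.0 ± 7.96 FPKM at 48 h (adjusted p = 0.0208). The same gene fell in MMACSF at 48 h, from 17.9 ± 2.30 to 5.37 ± 0.768 FPKM (adjusted p = 0.00501). LRP1, the endocytic receptor that clears thrombospondins, rose in MMACSF at 48 h, from 28.8 ± 9.26 to 89.6 ± 11.2 FPKM, just inside the threshold (adjusted p = 0.0099960). At 24 h it was 91.2 ± 14.0 FPKM there, just outside it (adjusted p = 0.0118). In COLO858 LRP1 went from 3.83 ± 0.924 to 10.8 ± 3.79 FPKM at 48 h without overlap, not past the threshold (adjusted p = 0.0299). The line difference at 48 h was -0.37 (adjusted p = 0.642). CALR, calreticulin, was the other receptor called lower in MMACSF at 48 h. The remaining receptors were not called, leaving 14 of 15 tested in COLO858 and 11 of 14 in MMACSF at 48 h.

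Most other proteins with thrombospondin type 1 repeats were low, as 7 of 23 were tested in COLO858 and 4 of 23 in MMACSF. HMCN1, the large matrix protein hemicentin-1, rose from 4.85 ± 0.963 FPKM under DMSO in COLO858 to 14.5 ± 2.02 at 24 h (adjusted p = 0.00613) and 22.0 ± 0.475 at 48 h (adjusted p = 0.00270). It was the only member of that list called in COLO858, and 0 of 4 were called by limma in MMACSF at either time (1 of 4 at an unadjusted p under 0.05, beside 36.0% and 38.9% of all genes at 24 h and 48 h), where HMCN1 went from 13.3 ± 0.751 to 31.9 ± 5.40 FPKM at 48 h (adjusted p = 0.0164). The lowest log2 fold-changes at 48 h, -0.32 for THSD1 in COLO858 and 0.23 for ADAMTSL5 in MMACSF, did not pass.

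Genes tied to YAP and TEAD, to which CYR61 and CTGF belong in the literature, moved in both directions. At 48 h 5 of 25 tested were called higher in COLO858 (AJUBA, AMOTL2, ARHGEF17, LATS2 and RBMS3) and 3 lower (AXL, IGFBP3 and NT5E), after 3 and 2 at 24 h. The median at 48 h was 0.28 beside -0.01 for all genes. AMOTL2, a scaffold that restrains YAP, went from 5.85 ± 0.0460 to 19.9 ± 0.185 and 42.9 ± 1.75 FPKM (log2 fold-change at 48 h 2.68, adjusted p = 0.000523). It also rose without overlap in MMACSF, from 9.49 ± 0.223 to 18.2 ± 0.300 and 15.8 ± 1.37 FPKM. There it did not pass the threshold (adjusted p = 0.0106 and 0.0170). In MMACSF 4 of 26 were called higher (ARHGEF17, CCDC80, IGFBP3 and TEAD2) and 2 lower (MYOF and NT5E) at 48 h, after 3 and 1 at 24 h. The median there at 48 h was 0.31 beside 0.06. IGFBP3, the main carrier of insulin-like growth factors, had a mean of 36.6 ± 0.574 FPKM under DMSO in COLO858 and fell to 5.34 ± 0.875 FPKM by 48 h (adjusted p = 0.00110) and rose in MMACSF from 58.0 ± 2.11 to 149 ± 11.8 FPKM (adjusted p = 0.00190). NT5E, the ecto-enzyme CD73, fell in both lines, at -2.19 (adjusted p = 0.00145) and -1.58 (adjusted p = 0.00407), and ARHGEF17 rose in both, at 1.54 (adjusted p = 0.00804) and 1.49 (adjusted p = 0.00418).

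Thrombospondin-1 is known to activate latent TGF-beta, and CTGF is a target of that pathway. In COLO858 1 of 11 genes of TGF-beta activation and response was called higher and 2 lower, TGFBI among them, at each time. TGFB2, a TGF-beta ligand, rose from 1.20 ± 0.187 to 7.41 ± 0.401 and 9.14 ± 1.57 FPKM (adjusted p = 0.00238 and 0.00180). In MMACSF 0 of 7 were called by limma at either time. At an unadjusted p under 0.05 there were 0 of 7 at 24 h and 3 of 7 at 48 h, beside 36.0% and 38.9% of all genes. LTBP3 had the largest difference upward at 48 h (1.05, adjusted p = 0.118) and SMAD7 the largest downward (-0.51, adjusted p = 0.0577).

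The last list holds SRF, its MRTF coactivators and their targets. Of 12 tested in COLO858, 6 were called higher at 48 h (ACTA2, CNN1, MYL9, TAGLN, TPM1 and VCL) and 0 lower, whereas at 24 h only MYL9 was called. The median of the 12 at 48 h was 1.14 beside -0.01 for all genes. CNN1 (0 under DMSO, 1.83 ± 0.709 FPKM at 48 h) and TAGLN (0.599 ± 0.254 and 2.63 ± 0.378 FPKM) were tested only because of their levels in drug, so their calls add no support to that count. MYL9, a myosin light chain of contractile cells, went from 4.29 ± 1.15 to 20.4 ± 3.75 and 39.3 ± 6.07 FPKM (adjusted p = 0.00458 and 0.00184). ACTA2, smooth muscle actin, rose from 10.6 ± 1.40 to 76.6 ± 3.15 FPKM at 48 h (adjusted p = 0.000665), while SRF itself was 21.7 ± 2.68 and 19.7 ± 3.32 FPKM. In MMACSF 2 of 10 were called higher (ACTA2 and TAGLN) and FHL2 lower at each time, with a median of 0.03 at 48 h beside 0.06 for all genes. There ACTA2 went from 3.43 ± 0.522 to 40.3 ± 4.90 FPKM (adjusted p = 0.000446) and FHL2 from 51.3 ± 3.22 to 18.6 ± 2.06 FPKM (adjusted p = 0.00448), and MYL9 was listed at 0 in 5 of 6 libraries.

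**Figure D4:**
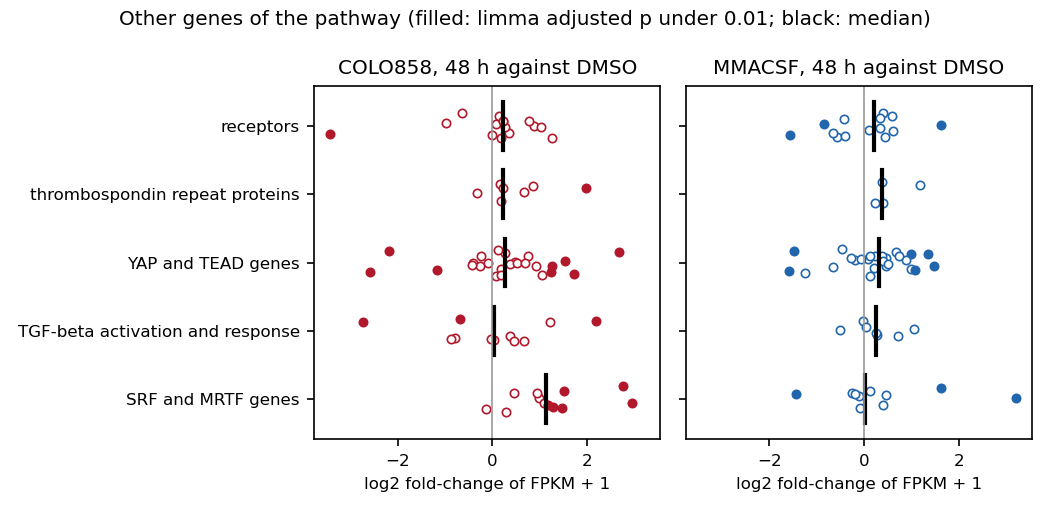
Each point is 1 tested gene of a pathway list, placed by its log2 fold-change of FPKM + 1 at 48 h against DMSO in COLO858 (left) and MMACSF (right), filled where the adjusted p was under 0.01, with a black bar at the list's median and vertical scatter for legibility only. The 12 SRF and MRTF genes of COLO858, 6 of them filled to the right, have a median of 1.14, whereas the medians of the other lists lie between 0.03 and 0.39.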

How the data were processed

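RNA of 12 libraries, 2 for each of 3 conditions in COLO858 and MMACSF, had been sequenced from stranded mRNA libraries as single reads. The authors used TopHat, with its default options, to map reads to hg19, and Cuffdiff to derive a value per gene. The values deposited by the authors, in 1 table per line, are named normalized and were taken as FPKM from the methods. Versions, gene annotation, and the strand setting and library scaling of Cuffdiff are not given in the sources used here. Whole reads could not be recovered, depth is unknown, and 0 columns were left out.

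Each line was fitted with limma 3.58.1 in R 4.3.3 as 3 groups on log2(FPKM + 1), with a mean-variance trend and no block. A gene was tested, two-sided, if its mean in some group reached 1 FPKM, with Benjamini-Hochberg adjustment over all genes tested and a threshold of 0.01. Line differences were an interaction over 12 libraries and 6 groups. Members tested numbered 8 in COLO858, 5 in MMACSF and 8 in the interaction. The procedure was tested on simulated data. Replicates were separate plates of 1 line, so p-values measure the spread between plates only.

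Members and lists were chosen with earlier results of these data known. Named are all members, the family members COMP and WISP3, the largest rise and fall of each pathway list per line at 48 h, and the 3 genes most alike each tested member. Other called pathway genes (TGFBI and CALR, for example), given by name only, were named after their values were seen. Of the pathway genes, 1 is counted in its list but not reported here. Gene positions are from GENCODE v44 lifted to GRCh37, and promoters from RefSeq on GRCh38.p14, found for 5 of 9 members and matched through current symbols. Figures were drawn with matplotlib 3.10.9. Alternatives were another pseudocount (0.1 FPKM), no minimum or one of 10 FPKM, the replicate block, median-ratio rescaling, no trend, only the groups compared, and leaving out each library.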

Additional observations from a re-analysis of the deposited data

Results flagged for a closer look

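The results below stood out because the change against DMSO in COLO858 differed from that in MMACSF in limma's interaction over the 12 libraries (adjusted p under 0.01 over all genes tested). Each value is the log2 difference, COLO858 minus MMACSF. Among the members it was 4.37 and 6.79 for THBS1, -4.09 and -3.60 for THBS2, 3.69 and 6.25 for NOV and 1.76 and 3.96 for CYR61 at 24 h and 48 h, and 1.75 for CTGF at 48 h. The members were selected on these libraries, so these values are descriptions.

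Among the receptors, ITGA4 differed by 2.61 (adjusted p = 0.00118) and 2.60 (adjusted p = 0.000589) and ITGB3 by -1.97 (adjusted p = 0.000781) and -2.78 (adjusted p = 6.15e-05) at 24 h and 48 h. Among the YAP and TEAD genes, IGFBP3 differed by -3.29 (adjusted p = 5.82e-05) and -3.92 (adjusted p = 6.82e-06), and AMOTL2 at 48 h by 2.00 (adjusted p = 6.58e-05). At 48 h IGFBP3 was called lower in COLO858 and higher in MMACSF.

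In the TGF-beta list, TGFB2 differed by 1.78 (adjusted p = 0.00150) and 2.22 (adjusted p = 0.000245) and SMAD7 at 48 h by 1.18 (adjusted p = 0.00298). Group means of TGFB2 were below 1 FPKM in MMACSF. In the SRF list, MYL9 differed by 2.02 (adjusted p = 0.00344) and 2.84 (adjusted p = 0.000370) and FHL2 by 1.83 (adjusted p = 0.000964) and 1.70 (adjusted p = 0.000668). Group means of MYL9 in MMACSF were 0 under DMSO and at 24 h and 0.0756 FPKM at 48 h. ACTA2 differed by -1.55 (adjusted p = 0.00253) at 24 h, when only MMACSF had passed the threshold for it.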

How the results depend on the processing

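The 28 member changes called, of 55 tested, kept their direction throughout, and 16 were called in every setting. Counts of called members moved by over 1.5 times in COLO858 between 24 h and 48 h (3, against 5 with the replicate block and 1 with only the groups compared). Calls over all genes there were 148 higher and 27 lower, against 1159 and 1121 with the block and 25 and 10 with only the groups compared. In MMACSF the 2 calls at 24 h became 0 with no minimum or only the groups compared and 1 at a minimum of 10 FPKM or after rescaling. The 2 at 48 h became 1 in each of these 4 settings. At a minimum of 10 FPKM WISP2 is not tested in MMACSF, so its absence there is set by the minimum. Calls over all genes at 24 h were 280 higher and 454 lower in the main fit. They were 179 and 344, 57 and 178, 232 and 314, and 287 and 633 in these settings, in that order. With 1 library left out, the fit assumes that the lone library varies like the others. All member calls between times in COLO858 and against DMSO in MMACSF were then lost. Against DMSO in COLO858 some member calls were kept, as given above. Most or all pathway calls were lost in both lines. How calls of all genes changed in these fits is not given here, so the losses cannot be set beside them.

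Pathway calls with the replicate block were 43 and 41 in COLO858 at 24 h and 48 h and 25 and 28 in MMACSF, where the same fit called 45.0%, 43.7%, 26.1% and 30.1% of all genes. With only the groups compared they were 11 in COLO858 at 48 h and 3 in MMACSF at 24 h. Calls over all genes then went from 602 higher and 600 lower to 267 and 226, and from 280 and 454 to 57 and 178. At a minimum of 10 FPKM they were 12 in COLO858 at 48 h, where fewer genes are tested and 393 were called higher and 386 lower. After rescaling they were 11 in MMACSF at 24 h, where 287 of all genes were called higher and 633 lower. The other causes were not tested. Values that changed sign were near 0: WISP2 between times in MMACSF ranged from -0.35 to 0.015 and its line difference at 48 h from -0.075 to 0.29, the sign changing without MMACSF 48 h replicate 2, and the line difference of THBS4 at 48 h ranged from -0.012 to 0.14, changing without MMACSF DMSO replicate 2. None of these was called.

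The labels do not say what a replicate number shares. Deviations of same-numbered libraries correlated at 0.196 to 0.211 in COLO858 and 0.0628 to 0.113 in MMACSF, with 2 pairs per comparison. Replicate 2 exceeded replicate 1 in 6 of 6 groups for NOV and 0 of 6 for THBS3. With the block WISP2 at 24 h and NOV and THBS2 between times in COLO858, and CYR61 at 24 h and NOV at 48 h in MMACSF, were also called, and no member call was lost. After rescaling the share of calls that were higher did not move by over 10 percentage points (MMACSF 38.1% to 31.2% at 24 h). It did under other fits, as between times in COLO858 (84.6%, against 50.8% with the block, which called 18.0% of all genes, and 71.4% with only the groups compared) and in MMACSF at 24 h (50.3% and 24.3%). Unknown depth limits the low genes THBS4, WISP1 and WISP2.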
